A study of Mus musculus with 12 samples.

Results

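The transcriptome of mouse embryonic stem cells that overexpress histone H3.1 with lysine 36 replaced by methionine (H3.1K36M) was compared with that of cells overexpressing wild-type H3.1 (H3.1WT). All genes that reached 1 FPKM (a fragment count scaled to transcript length and library size) in at least 2 of the 4 libraries of these groups were described, 12568 of the 23354 genes shared by all files. Every group was a stable line made in J1 mouse embryonic stem cells, grown in serum with leukemia inhibitory factor (LIF) over inactivated mouse embryonic fibroblasts. The series holds 6 groups of 2 libraries, and all 12 libraries entered the fit that gives the p-values. The knockdown lines shSuv39h1 and shSuv39h2, named for the H3K9 methyltransferase genes, serve only there and among the 10 other libraries mentioned below. Both remaining groups are given for their levels: H3.1K9M, with methionine at lysine 9, and shNC, a hairpin line from the knockdown arm of the study that is read here as its control. Which promoter drives the histone transgenes, and whether a line is 1 clone or a pool, is not stated in the labels. Nor do the labels say that the libraries of a group came from separate cultures, so the p-values measure the spread between libraries, which may be technical.

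Methylation of lysine 36 on histone H3 (H3K36) is laid down over active genes by NSD1, NSD2 and ASH1L, which make the dimethyl form, and by SETD2, which makes the trimethyl form behind elongating RNA polymerase. These marks are read by PWWP-domain proteins such as DNMT3A and DNMT3B, which methylate DNA, and MSH6, which is part of the mismatch repair machinery. H3K36 methylation also keeps Polycomb methylation (H3K27) off the same tails. Histones with methionine at lysine 36 are known to block these methyltransferases and lower H3K36 methylation throughout the cell. Embryonic stem cells in serum and LIF are a mixture of naive cells and cells on the way to the primed epiblast, the tissue that gives rise to the primitive streak.

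From the steps between low FPKM values, a level of 1 FPKM corresponded to roughly 45.6 to 48.9 sequenced fragments for a transcript 2 kb long in the 4 libraries. This estimate is rough: only 32.08% to 35.6% of the low values lay near whole fragment counts, where 10% would by chance. The depth was chosen to make that share largest. Between 12294 and 12422 genes reached 1 FPKM in each of the 6 overexpression libraries. Replicate libraries differed over genes with an SD of 0.18 (log2) in H3.1K36M, 0.243 in H3.1WT and 0.391 in H3.1K9M. All 10 embryonic stem cell markers were above 1 FPKM in every library of H3.1WT and H3.1K36M, with Pou5f1, the defining transcription factor of pluripotency, at 807 and 755 FPKM in H3.1WT and 641 and 627 in H3.1K36M. The transgene could not be checked in these values. Of 12 genes for replication-dependent histone H3, whose transcripts mostly lack a poly(A) tail, 10 were tested and none was called, and the highest value among the overexpression libraries was 15.9 FPKM. Values per gene symbol do not show which amino acid a transcript encodes.

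Called genes of the germline and of X-linked multicopy families were higher in H3.1K36M, called genes of the primitive streak and epiblast were lower, and the keratin pair Krt8 and Krt18 was lower too. Of the 12568 genes tested, 415 were called higher in H3.1K36M (3.30%) and 225 lower (1.79%), at an adjusted p under 0.05 in limma's moderated test on log2(FPKM + 1). By the ratio of mean FPKM, 149 of the genes called higher and 101 of those called lower differed at least 2-fold. The levels of the 4 libraries did not overlap in any of the 640 called genes, which were called on these same values, so this adds no separate support. The test leaned on having 2 libraries a group: without H3.1WT replicate 1 it called 96 genes higher and 46 lower, without H3.1WT replicate 2 153 and 63, without H3.1K36M replicate 1 73 and 35, and without H3.1K36M replicate 2 78 and 34. Genes named below that kept their calls in all 4 of these fits are pointed out for the gene lists, but not for every other gene. Ckb, Car2 and Psme2, named below, kept theirs as well. The share of calls in the higher direction depended on scaling: 64.8% as deposited, 53.7% after quantile normalization and 55.4% after median-of-ratios scaling.

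**Figure D1:**
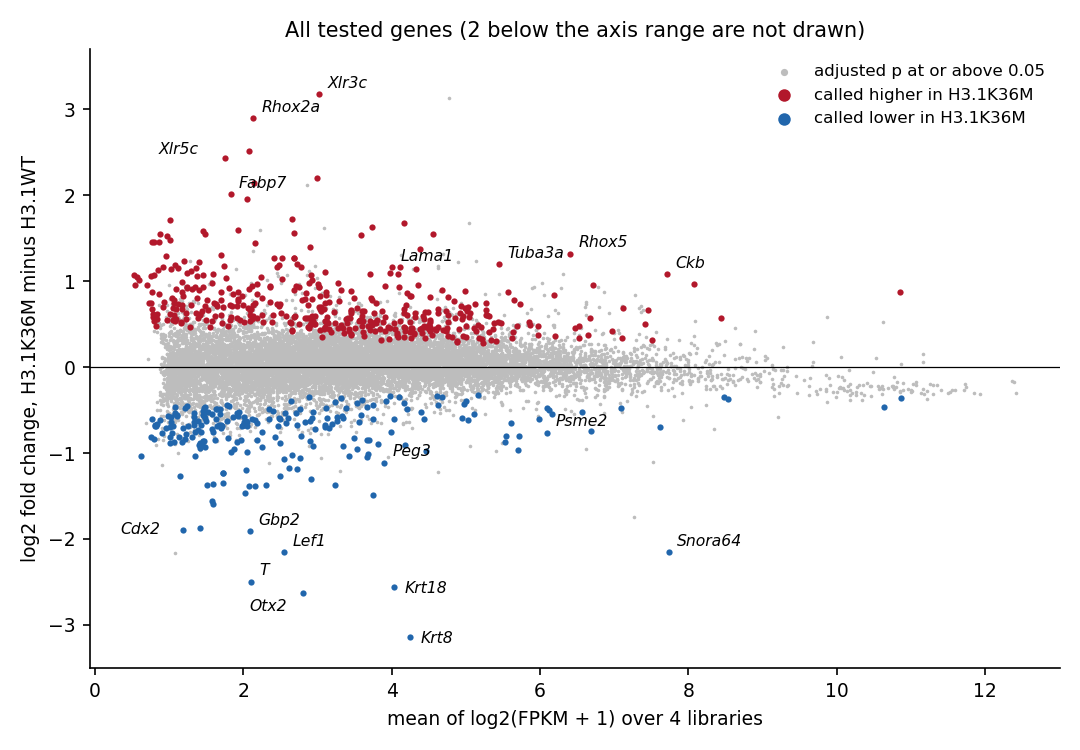
Log2 fold change of H3.1K36M against H3.1WT (vertical axis, on the log2(FPKM + 1) scale) against the mean level over the 4 libraries (horizontal axis). Each point is a gene, red where called higher (415), blue where called lower (225) and grey otherwise. Xlr3c and Rhox2a stand at the top, Krt8, Otx2, Krt18 and T near the bottom, and most genes at the right end lie below 0. The 2 genes below the axis range are not drawn.

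Compared with all 10 other libraries of the series, knockdown arm included, 346 of the 415 genes called higher were above every library and 164 of the 225 called lower were below every library. Among all tested genes 13.9% lay above and 7.68% below those 10. The 10 include the H3.1WT libraries, and the genes were called on the H3.1K36M values themselves. These counts, and those against shNC below, are therefore partly fixed by the call and are no separate support. The filter bears on these counts, since 70 of the genes called higher were under 1 FPKM in both H3.1WT libraries and passed only through H3.1K36M, and 44 of the genes called lower passed only through H3.1WT. Against shNC alone, whose values are given side by side without a test, H3.1K36M lay above both libraries in 393 of the 415 and below both in 194 of the 225, where the shares among all tested genes were 42.2% and 22.1%.

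Among the named genes Xlr3c and Rhox2a, of the X-linked Xlr and Rhox families, had the largest positive log2 fold changes, and some genes of the X-linked Mage family rose too. Xlr genes encode relatives of the synaptonemal complex protein SYCP3, Rhox genes are reproductive homeobox genes in a single cluster, and Mage genes are melanoma antigen genes that are mostly limited to the testis; many members of these families are known to be silenced in somatic cells by DNA methylation. Of 11 tested Xlr genes 7 rose and none fell, of 11 tested Rhox genes 8 rose and none fell, and of 13 tested Mage genes 4 rose and none fell. Their median log2 fold changes were 1.29, 1.07 and 0.24, against 0.036 over all tested genes. The filter passed 5 of the Xlr, 5 of the Rhox and 3 of the Mage genes only through H3.1K36M, and 19 Rhox and 13 Mage genes in the files were not tested because their levels were too low.

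Xlr3c was at 2.1 and 1.35 FPKM in H3.1WT and 23.2 and 23.8 in H3.1K36M, 13.6-fold higher (log2 fold change 3.18 ± 0.165 SE, adjusted p = 1.93e-05). Its level was 0.763 and 0.515 FPKM in H3.1K9M and 1.02 and 1.29 in shNC, so that H3.1K36M stood alone. Rhox2a, the largest change in the Rhox cluster, read 0.922 and 0.338 FPKM in H3.1WT against 10.7 and 11.2 in H3.1K36M (log2 fold change 2.90 ± 0.189, adjusted p = 6.10e-05). The related copies Rhox2b, Rhox2c, Rhox2d and Rhox2h also rose but stayed low, with mean levels of 2.03, 1.84, 1.10 and 1.28 FPKM in H3.1K36M. Rhox2d was listed at 0 in both H3.1WT libraries.

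Rhox5, the founding member of the cluster, was the most abundant of these genes. It gave 52.4 and 52.7 FPKM in H3.1WT, 132 and 133 in H3.1K36M and 84.1 and 82.6 in shNC, a 2.53-fold difference from H3.1WT (adjusted p = 1.54e-04). Its neighbour Rhox9 did not pass (7.17 and 6.49 against 7.27 and 7.55 FPKM, adjusted p = 0.707). Rhox10 did not pass either, at 8.09 and 6.89 against 10.4 and 10.5 FPKM (adjusted p = 0.272). The Rhox cluster thus held genes with a large difference beside expressed genes with none that was called.

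Single copies of the Xlr family differed in the same way. Xlr5b (0.952 and 0.594 against 9.0 and 9.11 FPKM), Xlr5c (0.446 and 0.458 against 5.75 and 8.17) and Xlr5a (1.31 and 0.905 against 7.94 and 8.60) all rose, with adjusted p of 1.93e-05, 8.35e-05 and 2.70e-05. Xlr3a, already at 13 and 13.3 FPKM in H3.1WT, stood at 15.6 and 16.2 in H3.1K36M and did not pass (adjusted p = 0.381), and Xlr3b was at 12.5 and 9.91 against 16 and 17.2 (adjusted p = 0.0892). Reads of near-identical copies can be split by the authors' quantification, so the level of a single Xlr or Rhox2 copy is less certain than that of its family. Calls held without any 1 of the 4 libraries for all 7 Xlr genes and for 7 of the 8 Rhox genes, all but Rhox13, and for Magea5 and Magea8.

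How close some of these copies are is visible in their promoters, shown here for 3 of the genes that rose. The windows are the 250 bases before the start in RefSeq (GRCm38.p6), 5′ to 3′ on the gene's strand, with CpG dinucleotides in capitals. Xlr5a (chrX:73117703-73117952, minus strand) and Xlr5b (chrX:73148591-73148840, plus strand) shared a stretch of 205 identical bases out of 205 aligned, and Rhox2a (chrX:37244742-37244991, plus strand) matched Rhox2c at 249 of 250 bases.
Xlr5a: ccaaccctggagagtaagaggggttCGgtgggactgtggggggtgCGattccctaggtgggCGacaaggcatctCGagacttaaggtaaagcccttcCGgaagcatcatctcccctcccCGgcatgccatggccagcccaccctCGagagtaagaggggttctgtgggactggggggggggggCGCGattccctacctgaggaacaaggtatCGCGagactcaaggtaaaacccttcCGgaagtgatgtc
Xlr5b: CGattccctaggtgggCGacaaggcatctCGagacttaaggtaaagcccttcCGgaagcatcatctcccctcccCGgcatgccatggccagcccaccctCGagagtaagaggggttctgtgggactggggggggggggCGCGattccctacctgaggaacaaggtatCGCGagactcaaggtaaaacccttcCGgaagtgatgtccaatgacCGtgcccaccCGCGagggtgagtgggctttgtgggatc
Rhox2a: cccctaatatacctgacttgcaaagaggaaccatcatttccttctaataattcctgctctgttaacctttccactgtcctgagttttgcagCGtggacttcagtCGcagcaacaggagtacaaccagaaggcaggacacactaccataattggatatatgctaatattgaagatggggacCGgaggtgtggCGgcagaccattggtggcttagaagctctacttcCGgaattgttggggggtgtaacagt
Xlr5a and Xlr5b held 12 and 14 CpG in this window and Rhox2a 5, where the median of all 32841 promoters in the table was 6.0. Xlr3b and Xlr3c, which differed in response, were identical at 226 of 230 aligned bases. Xlr5c did not align well with Xlr5a or Xlr5b over this window (alignment score under 150) and held 1 CpG, and its annotated span lies inside that of Xlr5a (GENCODE M21), so their reads may not be told apart.

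**Figure D2:**
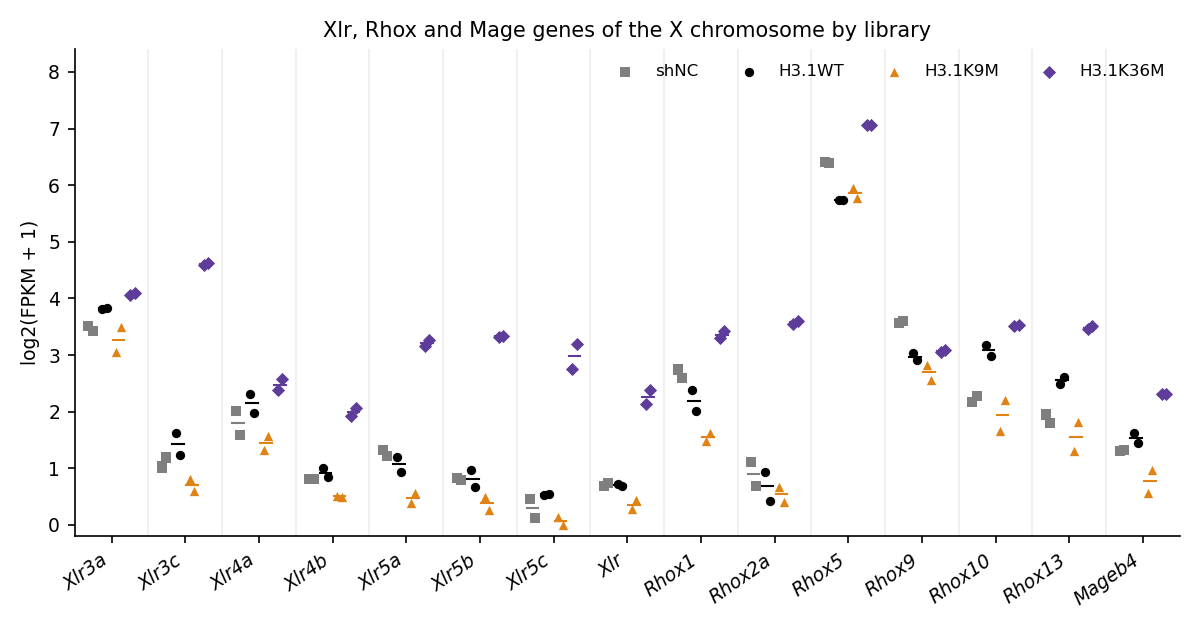
Level of 15 Xlr, Rhox and Mage genes on the log2(FPKM + 1) scale in each library of shNC, H3.1WT, H3.1K9M and H3.1K36M. Points are libraries and short lines are group means. Xlr3c and the Xlr5 genes separate by group most, while Xlr3a and Rhox9 in H3.1K36M lie close to H3.1WT, and H3.1K9M is lowest for most of them.

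Some genes of a wider germline list rose as well. The list of 32 tested genes, most of them meiotic or piRNA pathway genes known to be silenced by DNA methylation in somatic cells, had 9 called higher, among them Rhox13 of the Rhox cluster, and none lower, with a median log2 fold change of 0.05. Fkbp6, a piRNA pathway and meiosis gene, was at 4.06 and 3.19 FPKM in H3.1WT and 11 and 11.3 in H3.1K36M (adjusted p = 2.74e-04). Tuba3a, a testis tubulin, rose from 30.3 and 25.3 to 65.8 and 64.3 FPKM (adjusted p = 0.00228). Asz1, which acts in transposon silencing, rose 5.07-fold, and Dazl, an RNA-binding protein that is required for germ cells, rose 2.18-fold from 3.85 and 4.77 FPKM to 8.94 and 9.89. Piwil2, Hormad1, Rpl10l and Pdha2 also rose. Fkbp6, Tuba3a and Asz1 kept their calls without any 1 library, while Dazl kept its call in 2 of the 4 fits.

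For Fkbp6 and Hormad1 the level in shNC was near that in H3.1K36M: Fkbp6 read 8.70 and 9.48 FPKM there, and Hormad1 7.24 and 7.61 against 6.32 and 6.33 in H3.1K36M and 4.38 and 3.40 in H3.1WT. Many promoters of this list carry an E-box (CACGTG), the site bound by MAX and MGA in the Polycomb complex that represses germline genes. Of the 29 promoters found for the list, 37.9% held CACGTG in the 250 bases before the start, against 6.02% of all 32841 promoters. Among the 8 found for genes that rose, 2 held it, those of Fkbp6 (chr5:135350045-135350294, minus strand) and Hormad1 (chr3:95559427-95559676, plus strand), each in 2 copies. They are printed with the E-boxes in capitals, from the same RefSeq table.
Fkbp6: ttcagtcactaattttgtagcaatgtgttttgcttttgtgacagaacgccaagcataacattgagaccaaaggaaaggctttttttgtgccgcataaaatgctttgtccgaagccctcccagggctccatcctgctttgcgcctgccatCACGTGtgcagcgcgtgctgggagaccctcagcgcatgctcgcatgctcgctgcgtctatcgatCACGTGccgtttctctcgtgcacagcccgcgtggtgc
Hormad1: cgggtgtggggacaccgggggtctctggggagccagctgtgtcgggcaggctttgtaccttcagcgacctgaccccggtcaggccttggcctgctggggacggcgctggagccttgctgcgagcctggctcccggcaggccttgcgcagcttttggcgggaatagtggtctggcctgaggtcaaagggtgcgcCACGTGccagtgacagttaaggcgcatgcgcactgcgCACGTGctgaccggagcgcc
The E-boxes begin 101 and 37 bases before the start of Fkbp6 and 57 and 20 bases before that of Hormad1. No comparison of promoters was made over all called genes, because a promoter was found for only 78.0% of the tested genes.

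Genes of the oocyte and of the 2-cell-like state were also higher. The oocyte list had 9 tested genes, of which 5 rose and none fell, with a median log2 fold change of 0.78. Khdc3, part of the maternal subcortical complex, went from 11.3 and 12.6 FPKM to 32.5 and 32.4 (adjusted p = 0.00181), and in shNC it was at 29.5 and 37.1. Nlrp4f (1.65 and 1.44 against 3.69 and 3.93 FPKM), Obox6 (0.716 and 0.909 against 2.47 and 2.33), Npm2, an egg chromatin protein, and Nlrp4c were the others. All but Npm2 kept their calls in the 4 fits that leave out a library. Of 23 tested genes of the 2-cell-like state, in which a few embryonic stem cells transiently express genes of the early embryo, 5 rose and none fell, 3 of the 23 having passed the filter only through H3.1K36M. None of those 5 calls held when any 1 of the 4 libraries was left out, nor with the level of fibroblast markers as a covariate.

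Genes of the primitive streak and early mesoderm, the first cells to leave the epiblast, were lower. Of 17 tested, 10 were called lower and none higher, with a median log2 fold change of -0.85, and 6 of the 17 passed the filter only through H3.1WT. T, the Brachyury transcription factor, read 7.44 and 11.3 FPKM in H3.1WT and 0.643 and 0.981 in H3.1K36M (log2 fold change -2.50 ± 0.270, adjusted p = 0.00102). Cdx2, a homeobox factor of the posterior embryo and trophectoderm, dropped from 2.80 and 4.10 to 0.229 and 0.139 FPKM (adjusted p = 1.54e-04). Mixl1, Hand1, Evx1, Fgf8 and Eomes fell 4.66-fold, 4.02-fold, 15.5-fold, 4.53-fold and 2.22-fold. In H3.1K9M, T was at 10.9 and 8.22 FPKM and the mean of Fgf8 at 3.91 against 4.00 in H3.1WT, while the means of Mixl1 (2.2 against 3.60), Hand1 (3.14 against 4.29) and Eomes (3.29 against 4.28) were lower than in H3.1WT.

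In shNC most of them were already low. T was at 0.372 and 1.01 FPKM there, Cdx2 at 0.0882 and 0.222, Mixl1 at 0.246 and 0.398 and Fgf8 at 1.05 and 0.634. H3.1K36M lay below both shNC libraries in 3 of the 10 falling genes, Hand1, Wnt8a and Msx2, and overlapped or exceeded shNC in the other 7. The difference from H3.1WT was therefore not matched by a difference from shNC in most of this group, and no test was made across the arms. Calls of T and Cdx2 held without any 1 library. The count of 10 became 7 and 3 without H3.1WT replicates 1 and 2, and 2 and 3 without H3.1K36M replicates 1 and 2.

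**Figure D3:**
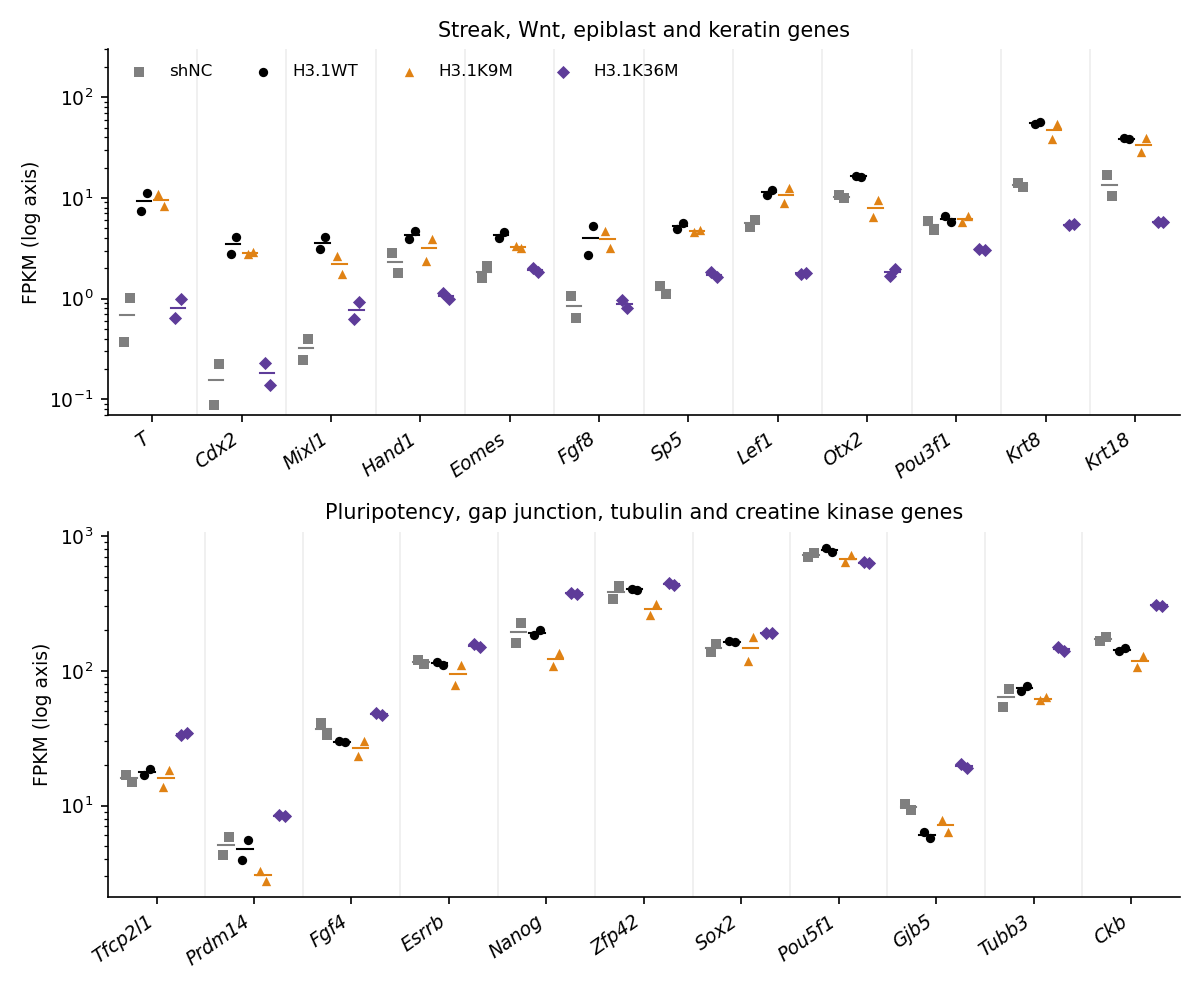
FPKM on a log axis in each library of shNC, H3.1WT, H3.1K9M and H3.1K36M, with points for libraries and short lines for means. In the upper panel H3.1K36M lies below H3.1WT and H3.1K9M for all 12 genes, and shNC lies near H3.1K36M for T, Cdx2, Fgf8 and Sp5. In the lower panel H3.1K36M is above the other groups for Tfcp2l1, Nanog, Gjb5, Tubb3 and Ckb, and lowest for Pou5f1, which was not called.

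Wnt signalling genes, some of them also in the streak list, moved in both directions. Canonical Wnt ligands stabilise beta-catenin, which acts with TCF and LEF factors on targets such as T, Sp5, Axin2 and Lef1 itself. Of 25 tested genes of the pathway 5 fell, 2 rose and 18 were not called. The 5 that fell were T, Lef1, Sp5, Wnt3 and Wnt8a, and Axin2 was not among them. Sp5, a direct target, was at 4.88 and 5.57 FPKM in H3.1WT and 1.82 and 1.63 in H3.1K36M (adjusted p = 3.86e-04), and at 1.33 and 1.10 in shNC. Lef1 fell from 10.7 and 12.1 to 1.76 and 1.81 FPKM (adjusted p = 8.35e-05), below shNC with 5.14 and 6.02. The ligands Wnt3 and Wnt8a fell 2.05-fold and 3.57-fold, whereas the ligand Wnt7b rose from 1.64 and 1.08 to 3.06 and 2.78 FPKM (adjusted p = 0.0246). Tcf7l1, the repressor among the TCF factors, rose from 14.9 and 15.7 to 24.8 and 22.3 FPKM (adjusted p = 0.0456). T, Lef1 and Sp5 kept their calls without any 1 library. Of the 5 that fell, T, Sp5 and Wnt3 did not lie below both shNC libraries.

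The TCF and LEF consensus was searched as CTTTGAT and CTTTGAA on both strands of the 250 bases before the start. T (chr17:8434173-8434422, plus strand) and Sp5 (chr2:70474673-70474922, plus strand) each held 1 match, as did 7.48% of all promoters in the table, and Lef1 held none. The matches, in capitals, begin 235 bases before the start of T and 104 bases before that of Sp5.
T: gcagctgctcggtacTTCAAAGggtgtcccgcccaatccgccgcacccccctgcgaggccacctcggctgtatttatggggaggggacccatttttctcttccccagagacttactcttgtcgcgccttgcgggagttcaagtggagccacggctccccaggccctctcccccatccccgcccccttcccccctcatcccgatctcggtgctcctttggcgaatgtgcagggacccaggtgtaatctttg
Sp5: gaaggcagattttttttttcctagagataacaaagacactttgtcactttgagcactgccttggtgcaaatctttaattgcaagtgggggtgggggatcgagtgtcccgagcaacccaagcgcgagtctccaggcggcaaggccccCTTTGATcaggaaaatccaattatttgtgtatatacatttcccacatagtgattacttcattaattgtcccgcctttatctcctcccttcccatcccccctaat
These are matches of letters in reference sequence and say nothing of binding in these cells.

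Genes of the primed and formative epiblast, the states between naive stem cells and gastrulation, fell in part. Of 19 tested 6 fell and none rose, with a median log2 fold change of -0.16. Otx2, a homeobox factor of the epiblast, was at 16.5 and 16.3 FPKM in H3.1WT, 1.68 and 1.97 in H3.1K36M, 6.43 and 9.49 in H3.1K9M and 10.7 and 9.93 in shNC. Its change was 8.98-fold (adjusted p = 4.17e-05), and H3.1K36M lay below all other groups shown. Pou3f1 (OCT6) fell from 6.55 and 5.75 to 3.12 and 3.02 FPKM. Grhl2, an epithelial factor, fell 2.51-fold and the kinase gene Pim2 2.04-fold. Calls of Otx2, Lef1, Grhl2 and Pim2 held in all 4 fits that leave out a library. Vrtn, a gene of vertebral patterning (3.86 and 4.41 against 0.743 and 0.733 FPKM), and Cyp26a1, which degrades retinoic acid (3.66 and 4.88 against 0.796 and 0.682), fell as well and held in those fits.

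The keratins of simple epithelia fell by a wide margin, with several junction genes. Of 35 tested genes of keratins, junctions and their regulators, 7 fell and 2 rose, with a median log2 fold change of -0.16. Krt8 and Krt18, the partner keratins of simple epithelia, stood at 54.3 and 57.1, and 39.3 and 38.4 FPKM in H3.1WT. In H3.1K36M they stood at 5.35 and 5.49, and 5.76 and 5.79, with adjusted p of 1.04e-05 and 1.20e-04. The levels in shNC lay between, at 14.1 and 12.8 for Krt8 and 16.7 and 10.4 for Krt18. Desmosome genes were lower as well: Pkp2, a plakophilin, fell 1.76-fold from 67.5 and 69.7 FPKM, and Dsp, desmoplakin, fell 1.74-fold from 6.93 and 7.73. Epcam, an epithelial adhesion molecule, fell from 64.7 and 55.7 to 37.6 and 38.4 FPKM (adjusted p = 0.0235), and the tricellular junction gene Lsr fell 1.43-fold.

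Other adhesion genes went the opposite way. Cdh3, P-cadherin, rose from 25.7 and 24.1 to 40.1 and 39.3 FPKM (adjusted p = 0.0304), and the protease inhibitor Spint1 rose 1.4-fold. Gjb5, which encodes a gap junction subunit, rose from 6.38 and 5.74 to 20.2 and 19 FPKM (3.23-fold, adjusted p = 1.21e-04). It read 10.3 and 9.22 FPKM in shNC, below H3.1K36M and above H3.1WT. Krt8, Krt18, Grhl2 and Gjb5 kept their calls in all 4 fits that leave out a library. Of the other trophectoderm genes, Tead4 and Tfap2c rose 1.53-fold and 1.49-fold while Cdx2, Hand1 and Eomes fell, so that list moved in both directions (3 of 19 higher, 4 lower).

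Genes of naive pluripotency were higher in part. Of 22 tested 5 were called higher and none lower, and 19 of 22 had a positive log2 fold change, with a median of 0.43. Tfcp2l1, a transcription factor of the naive state, was at 16.9 and 18.6 FPKM in H3.1WT and 33.2 and 34.4 in H3.1K36M (adjusted p = 0.00499). Nanog stood at 184 and 199 against 378 and 373 FPKM (adjusted p = 0.0120). Zfp57, which protects imprints, rose 1.27-fold, and Prdm14 and Fgf4 rose 1.76-fold and 1.60-fold. Other members did not pass: Esrrb was at 117 and 110 against 157 and 150 FPKM (adjusted p = 0.0921), Klf2 at 255 and 214 against 213 and 212 (adjusted p = 0.584) and Tbx3 at 26.3 and 20.7 against 20.8 and 21.5 (adjusted p = 0.651). The count of 5 became 2 after quantile normalization and 3 after median-of-ratios scaling, and no fit that left out 1 of the 4 libraries called more than 1 of them.

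Most genes listed as core factors were not called, where 3.30% of all tested genes were called higher and 1.79% lower. Nanog is counted in the naive list above. Of 16 core pluripotency genes tested 1 was called: Lin28b, an RNA-binding repressor of let-7 microRNAs, fell 1.71-fold from 6.45 and 6.51 to 3.55 and 4.02 FPKM (adjusted p = 0.00622). Of the stem cell markers, Sox2 stood at 165 and 164 FPKM in H3.1WT and 191 and 189 in H3.1K36M (adjusted p = 0.542). Zfp42 (REX1) was at 407 and 400 against 445 and 431 (adjusted p = 0.628). Pou5f1, given above, differed by a log2 fold change of -0.30 ± 0.0860 (adjusted p = 0.0824). Of 18 genes that LIF induces through STAT3 1 was called, Tfcp2l1, though 17 of the 18 were positive.

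**Figure D4:**
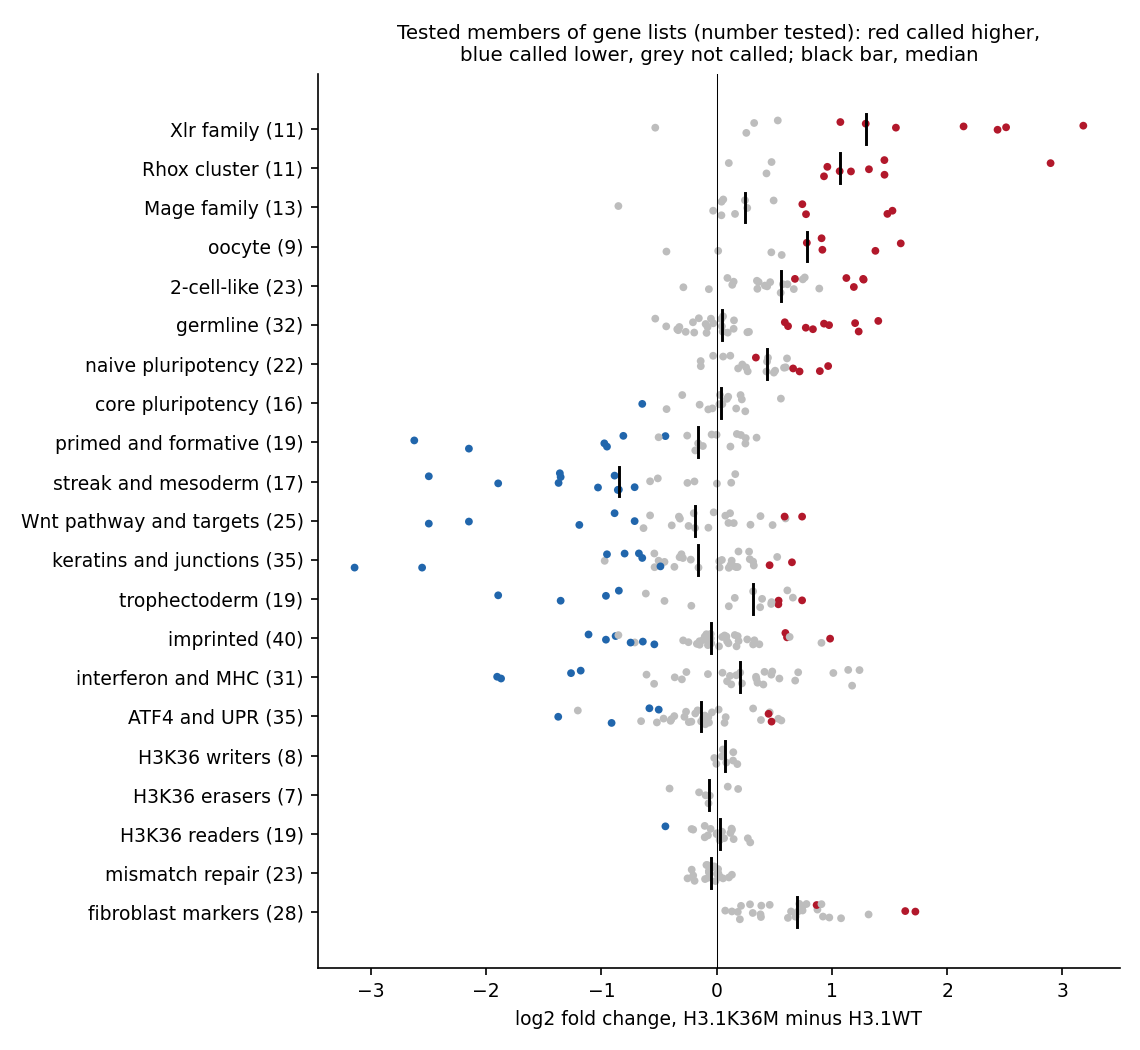
Log2 fold change of H3.1K36M against H3.1WT for every tested member of 21 gene lists, with the number tested in brackets. Points are genes, red where called higher, blue where called lower and grey otherwise, and black bars are medians. The medians of the Xlr and Rhox lists lie at 1.29 and 1.07 and that of the streak list at -0.85, while the writers, erasers and readers of H3K36 methylation and the mismatch repair genes cluster near 0.

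Ckb, brain creatine kinase, was among the largest differences of abundant genes, at 139 and 148 FPKM in H3.1WT and 309 and 301 in H3.1K36M (2.12-fold, adjusted p = 0.00205). The neuronal beta-tubulin Tubb3 rose from 71.0 and 77.3 to 150 and 140 FPKM (adjusted p = 0.00547), and its relatives Tubb2a and Tubb2b, looked up after the values were seen, rose 1.64-fold and 1.59-fold. Fabp7, a fatty acid binding protein of radial glia, rose from 0.478 and 1.12 to 5.80 and 6.49 FPKM (adjusted p = 0.0173), but H3.1K9M replicate 1 read 2.79 and no fit that left out a library called it. Sox1 stayed under 1 FPKM in every library shown, and Pax6 was at 1.45 and 1.02 against 0.797 and 1.04 FPKM. Of 13 tested neural genes 3 rose, Tubb3, Fabp7 and Ncam1, and none fell.

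Among 18 tested genes of Notch and Hedgehog signalling, 3 rose and none fell. The receptor Notch1 was at 8.39 and 7.88 FPKM in H3.1WT and 13.9 and 13.5 in H3.1K36M (adjusted p = 0.00740). The Hedgehog effectors Gli2 and Gli1 rose 1.57-fold and 1.51-fold, to 9.89 and 9.51 and to 16.4 and 15.4 FPKM. Gli1 read 15.9 and 12.7 FPKM in H3.1K9M, so it did not separate H3.1K36M from that group. None of the 3 kept its call in all 4 fits that leave out a library.

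Nckap1l (HEM1), the hematopoietic subunit of the actin-regulating WAVE complex, was at 1.68 and 1.71 FPKM in H3.1WT and 6.17 and 6.48 in H3.1K36M (3.74-fold, adjusted p = 1.54e-04). Was, the Wiskott-Aldrich syndrome gene that also controls actin in blood cells, rose from 0.698 and 0.757 to 2.84 and 3.24 FPKM (adjusted p = 0.00136). Both were picked after their values were seen, and both held without any 1 library. Vpreb1 on chromosome 16, which kept its call in 2 of the 4 fits that leave out a library (largest adjusted p = 0.0909) and encodes part of the surrogate light chain of pre-B cells, rose from 0.946 and 0.277 to 3.16 and 4.42 FPKM (adjusted p = 0.00740).

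Imprinted genes, expressed from 1 parental allele, moved in both directions. Of 40 tested, 6 fell and 3 rose. Peg3, a paternally expressed zinc finger gene, was at 19.9 and 22 FPKM in H3.1WT, 9.09 and 9.21 in H3.1K36M and 11.7 and 9.21 in shNC (2.29-fold lower, adjusted p = 0.0140). Peg10, a retrotransposon-derived placental gene, fell 1.99-fold, H19, a maternally expressed noncoding RNA, 1.88-fold, and Mest 1.46-fold. Snrpn (134 and 131 against 78.3 and 78.3 FPKM) and Snurf, which share a transcript and so are not independent, fell 1.69-fold and 1.68-fold. Sfmbt2, a Polycomb-related gene, rose from 5.52 and 6.29 to 12.6 and 12.7 FPKM (adjusted p = 0.00296), and Plagl1 and Peg12 rose 1.61-fold and 1.73-fold. Sfmbt2 kept its call in all 4 fits that leave out a library, and the other 8 did not. Mest and H19 in H3.1K9M, at 55.7 and 59.9 and at 33.3 and 45.5 FPKM, were nearer to H3.1K36M than to H3.1WT. In shNC Mest read 57.4 and 59.8 FPKM, as in H3.1K36M, while H19 read 60.6 and 53.3, near H3.1WT.

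The interferon-inducible proteasome subunits fell. This immunoproteasome replaces catalytic subunits of the standard proteasome and supplies peptides for antigen presentation. Psmb8 was at 7.6 and 7.91 FPKM in H3.1WT and 2.67 and 2.62 in H3.1K36M (2.93-fold lower, adjusted p = 7.34e-04). Psmb9 fell 2.64-fold from 9.38 and 8.52, and the activator subunits Psme1 and Psme2 fell 1.53-fold and 1.71-fold, Psme2 from 88.3 and 88.1 to 51.0 and 52.3 FPKM (adjusted p = 4.65e-04). Psmb10, looked up after its value was seen, fell 1.47-fold (adjusted p = 0.0447). The guanylate-binding protein genes Gbp1 and Gbp2 fell 10.5-fold and 6.09-fold from 3.32 and 5.06, and 6.18 and 8.42 FPKM.

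The wider interferon list did not fall as a whole. Of 31 tested interferon and antigen presentation genes 4 fell, Gbp1, Gbp2, Psmb8 and Psmb9, none rose, and the median log2 fold change was 0.20. The transcription factor gene Irf1 was at 20.2 and 22.8 against 14.3 and 14.5 (adjusted p = 0.0894), and Ifit3 at 0.260 and 0.997 against 2.62 and 2.87 (adjusted p = 0.0778). All 4 calls held without any 1 library. In shNC Psmb8 was at 3.76 and 3.20 and Gbp2 at 2.49 and 3.11 FPKM, between the levels of H3.1WT and H3.1K36M.

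Some stress, metal and cell cycle genes were called, where 3.30% of all tested genes were called higher and 1.79% lower. The oxidative and metal stress list had 3 of 17 tested genes called higher and 1 lower. Of 35 tested genes of the ATF4 and unfolded protein responses 4 fell and 2 rose: Atf3, an early stress transcription factor, fell 2.95-fold from 16.6 and 12.1 to 5.03 and 4.66 FPKM, Stc2, Pck2 and Atf4 fell 1.96-fold, 1.57-fold and 1.42-fold, and the chaperone genes Creld2 and Pdia4 rose 1.4-fold and 1.37-fold. Atf4 was at 48.6 and 55.1 FPKM in shNC, below its 57.0 and 57.8 in H3.1K36M, whereas Atf3, Stc2 and Pck2 lay below both shNC libraries. The metallothionein gene Mt2 rose from 1502 and 1232 to 2548 and 2463 FPKM (adjusted p = 0.0173), and the zinc exporter gene Slc30a1 rose 1.49-fold. Mt1 was at 1413 and 1224 against 1911 and 1879 FPKM (adjusted p = 0.113). Of 29 tested cell cycle regulators, Ccnd3 (cyclin D3) rose from 82.0 and 83.2 to 126 and 121 FPKM (adjusted p = 0.00240) and Cdk6, its kinase partner, rose 1.88-fold, and Ccnd3 kept its call in all 4 fits that leave out a library. Car2, carbonic anhydrase 2, fell from 20.5 and 22.7 to 7.15 and 6.88 FPKM (adjusted p = 9.57e-05), a level that shNC shared at 6.98 and 6.62.

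The enzymes and readers of H3K36 methylation had log2 fold changes between -0.44 and 0.29. Among all tested genes 3.30% were called higher and 1.79% lower, so lists this short would hold few calls either way. None of 8 tested writers was called: Setd2 was at 16.5 and 16.9 FPKM in H3.1WT and 18.3 and 18.9 in H3.1K36M (adjusted p = 0.293), Nsd1 at 12 and 15.3 against 15.5 and 15.5, Whsc1 (NSD2) at 8.65 and 9.11 against 10.1 and 9.74, and Ash1l at 3.47 and 3.7 against 3.77 and 3.95. Log2 fold changes of the writers lay between -0.02 and 0.18. None of 7 tested erasers was called, with a range of -0.41 (Kdm4b, 16.7 and 14.6 against 11.6 and 11.5 FPKM) to 0.19. Among 19 tested readers Dnmt3a was called lower, from 27.9 and 27.7 to 20.1 and 20.2 FPKM (1.38-fold, adjusted p = 0.0456), a level shared by H3.1K9M (20.3 and 19.4) and lost in all 4 fits that leave out a library.

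Dnmt3b, the other methyltransferase with a PWWP domain, had an adjusted p of 0.997 and mean levels of 49.1 and 49.1 FPKM. Msh6, the PWWP reader of mismatch repair, stood at 113 and 120 against 129 and 127 (adjusted p = 0.440). The remaining 16 readers had log2 fold changes from -0.22 (Sp140) to 0.29 (Phf1). No gene was called in 23 tested of mismatch repair, 20 of base excision repair, 26 of homologous recombination, 11 of translesion synthesis and cytidine deaminases, or 26 targets of p53, lists looked up because the series concerns single nucleotide variation. Lists of this size would hold few calls at the shares over all tested genes, 3.30% higher and 1.79% lower. Median log2 fold changes of these lists ran from -0.05 to 0.13. In simulated data for this comparison, run on 12568 genes, the test was checked: of 100 genes given a change of 1 (log2) it called 84, of 100 given a change of 2 it called 97, and 13 genes given no change were called as well. The changes were planted only in better expressed genes, with independent normal noise. Smaller changes, and changes in genes of low level, were not tried, so the simulation does not show that the lists above are unchanged.

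Calls among other chromatin genes were few and went in both directions, where 3.30% of all tested genes were called higher and 1.79% lower. Lists of this size would hold few calls at those shares. Of 33 tested Polycomb genes, Phc1, a subunit of the canonical complex, fell 1.63-fold from 269 and 233 to 157 and 150 FPKM, Kdm6b, an H3K27 demethylase, fell 1.39-fold, and Aebp2, an accessory subunit, rose 1.37-fold. None of the 3 kept its call in all 4 fits that leave out a library. Of 22 genes of H3K9 methylation 1 was called, Suv39h1, lower by 1.55-fold at 10.3 and 12.2 against 6.92 and 7.58 FPKM, and in shNC it was at 8.58 and 7.52. The replication-dependent H3 genes ranged from a log2 fold change of -0.79 (Hist1h3f, 2.45 and 2.51 against 1.19 and 0.857 FPKM) to 0.39 (Hist2h3c1).

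Genes of chromosome 16 were shifted upward as a group. The median log2 fold change of its 381 tested genes was 0.202, against 0.009 to 0.054 for the other 18 autosomes, and 82.2% were positive. Of these genes 39 were called higher and 1 lower, where the other autosomes had 319 higher (2.75%) and 208 lower (1.79%) of 11616. For genes of chromosome 16 above 10 FPKM the median ratio of H3.1K36M to H3.1WT was 1.18. The shift ran along the chromosome, with medians of 0.242, 0.175 and 0.179 in its first, middle and last 127 genes. It was seen in both H3.1K36M libraries: relative to the other autosomes, chromosome 16 stood at 0.167 and 0.171 there and between -0.021 and 0.015 in the other 10 libraries. Levels were first taken relative to the mean of those 10 libraries, so their values are centred in part by construction. The 39 genes included Igf2bp2, Ets2, Brwd1, Morc1, Dvl3 and Pi4ka, picked after their values were seen, and Pkp2 was the 1 called lower.

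**Figure D5:**
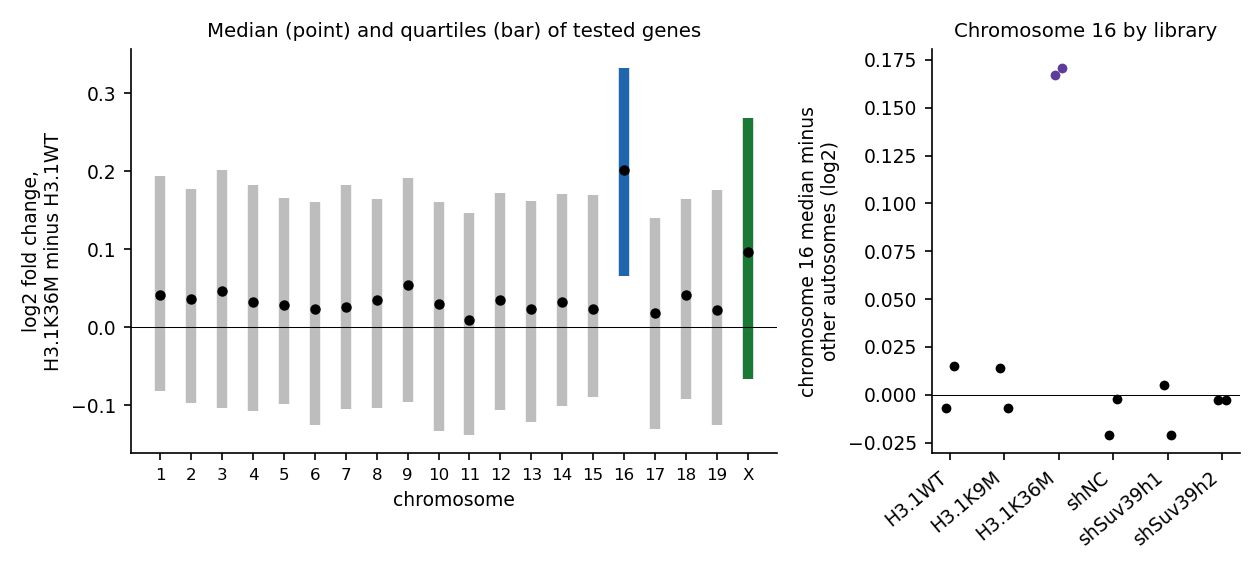
Left, median (points) and quartiles (bars) of the log2 fold change of H3.1K36M against H3.1WT by chromosome, with chromosome 16 in blue and X in green. Right, levels of each of the 12 libraries relative to the mean of the 10 libraries outside H3.1K36M, on the log2 scale. Points are the median of chromosome 16 genes minus that of the other autosomes, with H3.1K36M in purple. The median of chromosome 16 is 0.202, and both H3.1K36M libraries stand near 0.17 on the right while the other 10 lie between -0.021 and 0.015.

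The median of chromosome 16 was 0.15 after quantile normalization and 0.16 after median-of-ratios scaling. With chromosomes 16 and X left out, 294 genes were called higher and 194 lower. On the X chromosome 54 of 462 tested genes rose and 12 fell. The Rhox, Xlr and Mage genes held 19 of those that rose, out of 32 tested, and of the other 430 X genes 35 rose (8.14%) and 12 fell (2.79%). Beside the named families, and picked after their values were seen, Gm9 within the Rhox cluster rose from 1.04 and 1.17 to 7.36 and 7.00 FPKM, and the unnamed gene 1700013H16Rik from 2.38 and 3.1 to 16.6 and 15.8.

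The most abundant transcripts took a smaller share in H3.1K36M. Of 88 tested genes with a mean of at least 1000 FPKM 81 had a negative log2 fold change, with a median of -0.25, though only 2 were called lower and 1 higher. The 76 cytosolic ribosomal protein genes, looked at after seeing the data, had a median of -0.25, 74 were negative and none was called. After quantile normalization, which sets all libraries to the same distribution, these medians were -0.04 and -0.05, and after median-of-ratios scaling -0.29 and -0.29, so the size of this difference depended on the scaling. Their summed share of all FPKM was 26.0% and 23.5% in H3.1WT, 21.8% and 21.7% in H3.1K36M, 22.5% and 23.9% in H3.1K9M and 26.3% and 23.4% in shNC. The H3.1WT and shNC libraries thus spread over several percentage points, and H3.1K36M lay below the lowest of them. Glycolysis and hypoxia genes leaned the same way without a call, with 25 of 31 negative, a median of -0.21 and Ldha at 1609 and 1543 against 1260 and 1246 FPKM (adjusted p = 0.143). Among small RNA genes, outside the naming rule and picked after its value was seen, Snora70 was listed at 0 in both H3.1K36M libraries and both H3.1K9M libraries, against 57.6 and 71.7 FPKM in H3.1WT.

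Markers of fibroblasts, the feeder cell type, were detected in every library and were higher in H3.1K36M than in H3.1WT. In these bulk samples fewer cells of a type and less RNA per cell cannot be told apart. All 28 tested fibroblast markers had a positive log2 fold change, with a median of 0.69, and 3 were called: Postn (1.86 and 3.22 against 10.7 and 10.2 FPKM), Col3a1 and Col6a2. The 30 markers summed to 982 and 1619 FPKM in H3.1WT, 1989 and 1942 in H3.1K36M, and 2960 and 1494 in H3.1K9M, so H3.1WT and H3.1K36M did not overlap. With the mean of these markers as a covariate 399 genes were called higher and 237 lower, 382 of them among the 640, and 116 of the 144 called genes chosen for naming kept their calls, including Krt8, Otx2, T, Cdx2, Xlr3c, Rhox2a, Gjb5 and Psmb8. Those that no longer passed included Prdm14, Zfp57, Dnmt3a and the 2-cell-like genes. Markers of the trophectoderm summed to 104 and 107 FPKM in H3.1WT and 15.5 and 15.3 in H3.1K36M, mostly keratins, with Gata3 and Elf5 under 1 FPKM in every library. Their part in the other results was not tested.

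H3.1K36M was also tested directly against H3.1K9M, the other methionine mutant, in the same fit. There 738 genes were higher in H3.1K36M (5.87%) and 338 lower (2.69%). Krt8 differed by a log2 fold change of -2.88, T by -2.53 and Otx2 by -1.65 in this comparison (adjusted p = 3.47e-06, 5.18e-04 and 3.28e-04), and Xlr3c by 3.91 and Rhox2a by 3.04 (adjusted p = 3.09e-06 and 3.15e-05). Of the 32 germline genes 15 were higher than in H3.1K9M and none lower. Dazl was at 1.38 and 1.63 FPKM in H3.1K9M and Fkbp6 at 1.30 and 1.46, below H3.1WT. Of the 2-cell-like genes 20 of 23 were higher than in H3.1K9M and of the naive genes 12 of 22. Against H3.1WT 5 of each list were called higher. The median log2 fold change of the 2-cell-like list was 1.53 against H3.1K9M and 0.56 against H3.1WT, and that of the naive list 0.64 and 0.43. The difference from H3.1K9M was thus larger than that from H3.1WT in both lists, and cannot be read as a rise in H3.1K36M alone. Mest, Dnmt3a and H19, which were lower than in H3.1WT, did not pass the test against H3.1K9M (adjusted p = 0.912, 0.938 and 0.464).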

How the data were processed

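mRNA of 12 libraries was profiled, 2 in each of 6 groups, by sequencing of captured mRNA per the labels' protocols, which name 2 library kits without saying which made which library. The authors deposited 1 file per library, with a single FPKM value for each gene symbol; the unit is inferred from the values, and no total counts come with them. Build mm10 and the programs Cuffdiff 2.2.1 and TopHat2 2.0.13 stand in the submitters' processing notes, without their roles, and no annotation is named there. Of 23355 symbols per file, 23354 were shared. Genes reaching 1 FPKM in 2 or more of the 4 H3.1WT and H3.1K36M libraries were kept, and log2(FPKM + 1) was fitted in limma 3.58.1 (R 4.3.3) with 6 group means over all 12 libraries, 6 residual degrees of freedom and a variance trend. Adjusted p-values (Benjamini-Hochberg over all 12568 genes, called under 0.05) and SE are limma's; folds are ratios of mean FPKM, so they can differ from the log2 fold changes on the log2(FPKM + 1) scale, which understate changes of low genes. Genes were placed with GENCODE M21, and promoters come from a RefSeq table on GRCm38.p6.

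The genes, lists and comparisons were chosen with earlier results of these data known. Genes named are the 15 with the largest change in each direction (at least 3 FPKM), the 10 among those of at least 50 FPKM, up to 6 of smallest p from each of 46 lists, all H3K36 and replication-dependent H3 genes, the cell type markers, and genes said to be picked after their values were seen. Alternatives tried were another pseudocount, other filters, 2 scalings, quality weights, fits on fewer libraries, a replicate block, a fibroblast marker covariate, a fold threshold and leaving out each library. The test was checked on simulated data. Some results are not reported here.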

Additional observations from a re-analysis of the deposited data

How the results depend on the processing

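No called gene chosen for naming changed sign under any alternative that gave it a value. The counts of genes higher and lower than in H3.1WT (415 and 225) were 264 and 104 with at least 5 FPKM required, 1850 and 1141 with array quality weights, 133 and 62 in a fit of the 6 overexpression libraries, 1195 and 712 in a fit of the 4 libraries alone, and 21 and 12 when tested against a 1.5-fold change. The counts against H3.1K9M (738 and 338) were 489 and 189 with at least 5 FPKM, 366 and 136 with quality weights, 386 and 143 in the 6-library fit and 1228 and 761 with the fibroblast marker covariate. The cause of these shifts was not tested, except that the higher filter tests fewer genes. Leaving out 1 library gave 73 to 767 higher and 34 to 461 lower than H3.1WT, with the high counts (767 and 461, 767 and 456) without H3.1K9M replicates 1 and 2. Against H3.1K9M it gave 210 to 988 and 57 to 621, the low counts without H3.1K36M replicate 1 (210 and 57) and replicate 2 (214 and 57), and 621 lower without H3.1K9M replicate 1. Where a group was left with 1 library, that library was assumed to vary like the other groups.

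With a replicate block the counts were 399 and 212 against H3.1WT, and 745 and 326 against H3.1K9M. Same-numbered libraries did not deviate together (correlations of -0.03 for H3.1WT with H3.1K36M, -0.4 for H3.1WT with H3.1K9M and -0.215 for H3.1K9M with H3.1K36M), so the numbers were not taken as pairs. A crossed pairing of H3.1K9M and H3.1K36M, chosen after seeing the data, gave 834 and 416. The remaining alternatives (a pseudocount of 0.1, no filter, quantile and median-of-ratios scaling) kept the counts within 1.5 times. Of the 144 called genes named or eligible for naming, 131 were still called with the pseudocount of 0.1, 133 after quantile normalization, 138 with the block, 80 in the 6-library fit, 30 against a 1.5-fold change, and 70, 81, 60 and 59 without H3.1WT replicates 1 and 2 and H3.1K36M replicates 1 and 2. With 2 libraries a group, a difference that missed the threshold was not shown to be absent.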
